A study of Homo sapiens with 6 samples.

Results

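Chromatin accessibility was described around 10 genes of FGF signalling and its ERK feedback, namely the ligands FGF2 and FGF4, the receptor FGFR1, the feedback inhibitors DUSP6, SPRY2, SPRY4 and SPRED2, and the target factors ETV4, ETV5 and EGR1. Members were all ATAC-seq peaks that lay inside one of these genes or within 50000 bp of it (GENCODE 44 gene models, genome build hg38), whatever their values. The rule gave 198 of the 171517 peaks counted in the series, from 6 peaks for DUSP6 to 34 for SPRED2, and no peak belonged to more than 1 of the genes. Each peak is named here by its gene and its rank along the chromosome, so that SPRY2:15 is the 15th of the SPRY2 peaks.

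The cells were H9, a long-established line of human embryonic stem cells, kept in the naive state (nES cells) in tt2iLGö medium at 5% O2. All 6 libraries shared this medium, which holds 1 µM of the MEK inhibitor PD0325901, 0.3 µM of the GSK3 inhibitor CHIR99021, 2 µM of the protein kinase C inhibitor Gö6983 and 10 ng/mL human LIF. Of these, 3 libraries came from cells given 4 mM dm-αKG, a cell-permeable ester of the metabolite α-ketoglutarate, for 24 h, and 3 were controls, which the labels call DMSO and the methods 0 mM dm-αKG. The replicates belong to 1 experiment with 1 cell line, and feeder cells were depleted before plating. No library without the MEK inhibitor was analysed here.

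FGF ligands bind receptor tyrosine kinases such as FGFR1, which act through RAS, RAF, MEK and the kinase ERK. Active ERK switches on immediate early genes such as EGR1, the ETS factors ETV4 and ETV5, and a set of inhibitors of the same cascade. Among the inhibitors, DUSP6 removes phosphates from ERK, and the Sprouty and SPRED proteins act on RAS and RAF. In pluripotent cells FGF4 is a target of OCT4 and SOX2, and inhibition of MEK is used to hold human cells in the naive state.

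In ATAC-seq a transposase inserts adapters into open DNA, so the reads at a site rise with its accessibility. Values are normalized counts, meaning reads in a peak scaled by TMM to the mean effective library size of 19511655 counts in peaks. The libraries held between 13025674 and 26828622 counts in peaks, and 195 of the 198 peaks had more than 3 reads in every library. Libraries of the same treatment correlated at 0.954 to 0.973 (Pearson, log2 values of all peaks), and those of different treatments at 0.925 to 0.938. Promoter peaks were found for 8 of 9 naive markers, 5 of 5 primed markers and 5 of 5 trophectoderm markers. The exception was DPPA3, which had no promoter peak. Mean normalized counts ran from 200.1 to 746 in control and 223 to 937 with dm-αKG over the naive markers. They ran from 112 to 469 and 113 to 384 over the primed markers, and from 56.8 to 432 and 85.3 to 396 over the trophectoderm markers. At an adjusted p below 0.05, KLF17 fell and SUSD2 rose among the naive markers, DUSP6 and SFRP2 fell among the primed markers, and KRT7 rose among the trophectoderm markers. The part of any shift in cell state in the results below was not tested. With a bulk library, fewer cells with an open site and a less open site in each cell cannot be told apart.

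Adjusted p-values are Benjamini-Hochberg values over all 171517 peaks from edgeR's quasi-likelihood test, with n = 3 libraries per treatment. Calls needed an adjusted p below 0.01 together with a log2 fold change (dm-αKG over control) of more than 1 in size. Of the 198 peaks, 11 were called less accessible and 1 more accessible with dm-αKG, while 1.96% of all peaks were called less accessible and 0.782% more. At an adjusted p below 0.05 with no limit on size, 35 of the 198 peaks (17.7%) fell and 10 (5.05%) rose, beside 10.5% and 7.43% of all peaks. The treatments did not overlap at 74 of the 198 peaks in total, 49 lower and 25 higher with dm-αKG (37.4%), against 32.4% of all peaks. The median log2 fold change was -0.052, and over all peaks it was 0.011.

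Summed over the 198 peaks, the control libraries held 27132, 27355 and 27102 normalized counts. The dm-αKG libraries held 25126, 25131 and 25194, so that all of them lay below every control library. The sum went from 27196 ± 138 to 25150 ± 38 (mean ± SD, n = 3 each), a change of -7.52%. The sum over all peaks of the series was also lower in every dm-αKG library than in every control library, with a change of -1.07%. The 30 peaks within 1 kb of a start of their own gene summed to 8083 ± 49 in control and 7931 ± 61 with dm-αKG, and the other 168 to 19113 ± 90 and 17219 ± 99. Over the whole series, peaks more than 1 kb from a coding start changed by -5.17% in sum, and those nearer by 4.88%.

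**Figure D1:**
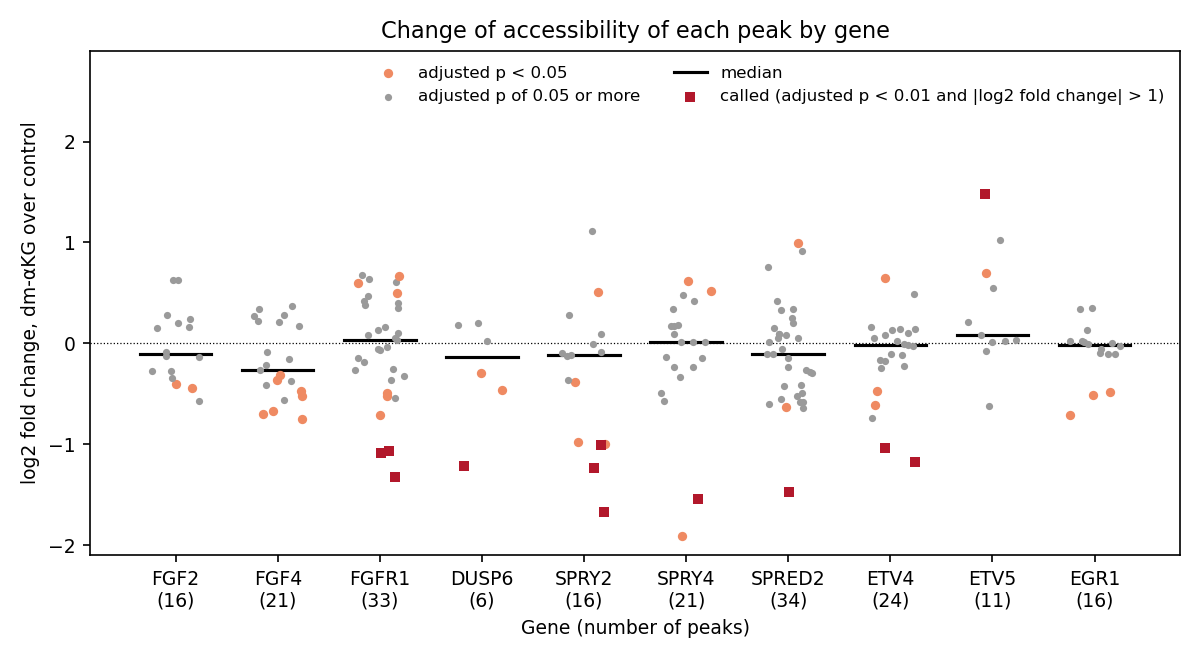
Log2 fold change (dm-αKG over control) of all 198 peaks, grouped by gene, with the number of peaks under each name. Squares are the 12 called peaks, larger points other peaks at an adjusted p below 0.05, and bars the median of each gene, which runs from -0.26 for FGF4 to 0.09 for ETV5.

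The ligand FGF4 had the lowest median of the 10 genes, with many small falls and none that reached the size for a call. FGF4 encodes the main FGF of the early epiblast and lies on chromosome 11, positions 69771022 to 69775341, on the minus strand. Of its 21 peaks, 10 had an unadjusted p below 0.05, as did 52646 of all 171517 peaks. At an adjusted p below 0.05, 7 fell (33.3%) and 0 rose, beside 10.5% and 7.43% of all peaks. DESeq2 gave 6 lower and 0 higher, and limma-voom 8 and 0. The treatments did not overlap at 11 of the 21 peaks (52.4%), always with dm-αKG lower, against 32.4% of all peaks in either direction. Summed over its peaks, FGF4 held 3370, 3309 and 3411 normalized counts in control and 2835, 2650 and 2718 with dm-αKG.

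The FGF4 promoter peak FGF4:7, centred 179 bp upstream of the start, held 430, 432 and 407 normalized counts in the control libraries and 331, 339 and 316 with dm-αKG. Every control library lay above every dm-αKG library. The log2 fold change was -0.36 ± 0.09 (SE) with an adjusted p of 0.0012. A wider peak 3613 bp upstream, FGF4:9, held 458, 567 and 509 normalized counts in control and 379, 354 and 374 with dm-αKG. It fell by 0.47 ± 0.08 on the log2 scale (adjusted p = 1.3e-05), the smallest p of the FGF4 peaks. FGF4:8, which lies between these and is weaker, had the largest fall of the gene among peaks below 0.05, a log2 fold change of -0.75 ± 0.17 (adjusted p = 0.00086). The strongest peak per 100 bp, FGF4:11 at 12344 bp upstream, fell by 0.32 on the log2 scale (adjusted p = 0.0011). The others were FGF4:2 and FGF4:3, at 28113 and 24862 bp downstream of the start, and FGF4:14, farther upstream than FGF4:11, with log2 fold changes of -0.67, -0.70 and -0.52. FGF4:14 had an adjusted p of 0.020 with edgeR and 0.063 with DESeq2. No peak of the far upstream cluster FGF4:16 to FGF4:21, which lies in or next to the neighbouring gene FGF3, passed the test. For 10 of the 21 peaks, FGF4:14 among them, the nearest coding start belongs to FGF3 or FGF19, so the window alone assigns them to FGF4.

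FGF4:6, by contrast, did not pass the test. It lies in the 3′ UTR and holds, side by side, an octamer, the motif bound by OCT4, and a SOX motif. FGF4:6 held 165, 169 and 147 normalized counts in control and 180, 137 and 126 with dm-αKG, and the treatments overlapped. Its log2 fold change was -0.09 ± 0.14 with an adjusted p of 0.71. The sequences of FGF4:9, the FGF4 peak with the smallest p, and of 30 bases around the paired motifs of FGF4:6 are shown so that both can be compared (hg38, plus strand, 5′ to 3′). Capitals mark matches to the SOX motif (CNTTGTT) or the octamer (ATGCAAAT) on either strand.
FGF4:9, chr11:69778815-69779094: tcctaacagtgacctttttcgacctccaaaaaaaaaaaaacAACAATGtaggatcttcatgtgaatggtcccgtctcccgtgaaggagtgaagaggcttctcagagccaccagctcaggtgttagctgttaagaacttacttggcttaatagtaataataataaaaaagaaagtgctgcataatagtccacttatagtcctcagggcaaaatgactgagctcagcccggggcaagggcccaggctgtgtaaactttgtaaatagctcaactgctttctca
FGF4:6, chr11:69771666-69771695: ttaagtcgatgATTTGCATtcgAACAAAGa
In FGF4:6 the octamer and the SOX match lie 3 bases apart, whereas FGF4:9 has a SOX match and no octamer.

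FGF2, a second ligand and a common supplement of primed stem cell media, had 16 peaks. With edgeR 2 of them fell at an adjusted p below 0.05 (12.5%) and 0 rose, and both falls lay far upstream. Of all peaks 10.5% fell and 7.43% rose, so these counts are near those shares. None of the 16 peaks was called by edgeR, DESeq2 or limma-voom. At an unadjusted p below 0.05 there were 5 of the 16, beside 52646 of all 171517 peaks. Of all peaks edgeR called 1.96% less accessible and 0.782% more, so 0 of 16 is near that share. FGF2:7, centred 29661 bp upstream of the nearest FGF2 start, held 542, 635 and 548 normalized counts in control and 450, 382 and 433 with dm-αKG. All control libraries were higher, and the log2 fold change was -0.44 ± 0.08 (adjusted p = 1.7e-05). FGF2:1, 43169 bp upstream, went from 462 ± 55 to 346 ± 29 normalized counts (SD, n = 3 each), a log2 fold change of -0.40 ± 0.09 (adjusted p = 0.00042). The promoter peak FGF2:9, which is 539 bp wide, was weak in both treatments. It held 78.7, 78.1 and 63.2 normalized counts in control and 100.4, 73.1 and 74.8 with dm-αKG, with an adjusted p of 0.50.

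FGFR1, the receptor, lies on chromosome 8, positions 38400215 to 38468834, on the minus strand. Of its 33 peaks, 3 were called less accessible and 0 more, beside 1.96% and 0.782% of all peaks. At an adjusted p below 0.05 there were 6 lower and 3 higher (18.2% and 9.09%), against 10.5% and 7.43% of all peaks. The clearest was FGFR1:15, in an intron at positions 38440665 to 38440875. It held 264, 220 and 239 normalized counts in control and 79.6, 88.5 and 132 with dm-αKG, with no overlap. The log2 fold change was -1.32 ± 0.14 (adjusted p = 1.8e-12). FGFR1:14, on a coding exon, fell by 1.06 ± 0.22 on the log2 scale (adjusted p = 0.00018). It dropped below the fold threshold without control replicate 3 (-0.91) or without dm-αKG replicate 3 (-0.92). FGFR1:1 lies 96171 bp from the nearest FGFR1 start, in an intron of NSD3, a neighbouring gene for a histone methyltransferase. It held 44.7, 68.2 and 49.8 normalized counts in control and 25.8, 28.2 and 22.4 with dm-αKG (log2 fold change -1.09 ± 0.26, adjusted p = 0.0015). Without control replicate 2 its adjusted p was 0.051, without dm-αKG replicate 1 it was 0.012, and with DESeq2 it was 0.0115, so that the call was lost each time.

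At the promoter of FGFR1, the main peak FGFR1:24 held 357, 377 and 350 normalized counts in control and 398, 377 and 370 with dm-αKG, and the adjusted p was 0.55. A weaker peak beside it, FGFR1:22, rose from 44.6 ± 10.8 to 69.6 ± 11.4 normalized counts (log2 fold change 0.67 ± 0.22, adjusted p = 0.022), but DESeq2 gave an adjusted p of 0.092. Upstream of the gene, FGFR1:26 and FGFR1:31 fell by 0.49 and 0.52 on the log2 scale (adjusted p = 0.00079 and 0.00021), the libraries of FGFR1:26 overlapping. The other peaks at an adjusted p below 0.05 were FGFR1:3 and FGFR1:8, higher with edgeR but not with DESeq2 (0.14 and 0.11), and FGFR1:9, which was lower. All 3 lie beyond the 3′ end of FGFR1, and their nearest starts belong to NSD3 or LETM2, so the window alone assigns them to the receptor.

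The feedback inhibitors DUSP6, SPRY2, SPRY4 and SPRED2 held 77 peaks, of which 6 were called less accessible and 0 more. Over all peaks, 1.96% were called less accessible and 0.782% more. At an adjusted p below 0.05 there were 13 lower and 4 higher (16.9% and 5.2%). This compares with 10.5% and 7.43% of all peaks, and 13.2% and 6.29% of those over 1 kb from a coding start. Summed over the 77 peaks, normalized counts were 8498, 8508 and 8584 in control and 7605, 7796 and 7960 with dm-αKG. SPRY2 and DUSP6 made up most of the fall. SPRY2 went from 2219 ± 80 to 1789 ± 15 and DUSP6 from 1082 ± 37 to 809 ± 66, while SPRED2 went from 3128 ± 13 to 2997 ± 76 and SPRY4 was higher with dm-αKG, 2101 ± 60 against 2192 ± 32.

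DUSP6, whose transcript level is widely used as a readout of ERK activity, fell at each of the 3 peaks around its start. It lies on chromosome 12, positions 89347235 to 89352501, on the minus strand. DUSP6:1, in an intron 1120 bp downstream of the nearest start, held 171, 192 and 202 normalized counts in control and 76.0, 59.0 and 112 with dm-αKG. Every dm-αKG library was lower, and the log2 fold change was -1.22 ± 0.16 (adjusted p = 1.8e-09). It stayed past both thresholds without any 1 of the 6 libraries, with log2 fold changes from -1.44 to -1.06. The promoter peak DUSP6:2 held 516, 418 and 471 normalized counts in control and 361, 366 and 425 with dm-αKG, with an overlap. It fell by 0.30 ± 0.09 on the log2 scale (adjusted p = 0.0093), but DESeq2 gave an adjusted p of 0.053. Leaving out control replicate 1 gave an adjusted p of 0.16, and leaving out replicate 1 or 2 of dm-αKG gave 0.091 or 0.053. DUSP6:3, 1625 bp upstream, went from 347 ± 14 to 256 ± 27 normalized counts, a log2 fold change of -0.46 ± 0.10 (adjusted p = 0.00028). The 3 weak peaks farther upstream had log2 fold changes of 0.03 to 0.20 and adjusted p-values of 0.60 or more.

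SPRY2 had the most lower peaks of the inhibitors, with 6 of 16 at an adjusted p below 0.05 (37.5%), all of them distal. Of all peaks in the series 10.5% were lower, and of those more than 1 kb from a coding start 13.2%. The strongest distal peak, SPRY2:15, lies 18795 bp upstream of the start on chromosome 13. It held 314, 278 and 300 normalized counts in control and 113, 130 and 142 with dm-αKG. The treatments were far apart, with a log2 fold change of -1.24 ± 0.12 and an adjusted p of 4.5e-14, the smallest p of all 198 peaks. SPRY2:14, a separate peak directly beside it, changed less, from 246 ± 19 to 188 ± 34 normalized counts (log2 fold change -0.38 ± 0.12, adjusted p = 0.014, or 0.066 with DESeq2). On the other side of the gene SPRY2:4 held 43.8, 40.3 and 42.5 normalized counts in control and 10.8, 19.2 and 10.5 with dm-αKG. That was the largest fall among called peaks, -1.67 ± 0.33 on the log2 scale (adjusted p = 8.0e-05).

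The remaining SPRY2 losses sat at the size threshold. SPRY2:3 was called at a log2 fold change of -1.01 ± 0.20 (adjusted p = 9.9e-05). SPRY2:2 and SPRY2:13, with -0.99 and -0.98, were not, although their adjusted p-values were 4.5e-07 and 0.00025. SPRY2:3 fell short of the size threshold under limma-voom, total-count and upper-quartile scaling. It also fell short when control replicate 2, control replicate 3 or replicate 3 of dm-αKG was left out, the smallest log2 fold change being -0.94. At the promoter, SPRY2:10 held 522, 487 and 579 normalized counts in control and 468, 491 and 536 with dm-αKG (adjusted p = 0.46). SPRY2:7, just inside the gene, rose from 70.7 ± 9.8 to 99.8 ± 4.5 (log2 fold change 0.51 ± 0.18, adjusted p = 0.033), with an adjusted p of 0.098 from DESeq2.

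SPRED2, with 34 peaks, and SPRY4, with 21, each had 1 called peak (2.94% and 4.76%). Of all peaks 2.74% were called, so 1 call each is near that share. SPRED2:32, 5335 bp upstream of the nearest SPRED2 start in an intron of the non-coding gene LINC02934, held 127, 115 and 88.7 normalized counts in control and 40.9, 37.2 and 41.9 with dm-αKG. The dm-αKG libraries were close to each other and all below control. The log2 fold change was -1.47 ± 0.20 (adjusted p = 1.1e-08), and the call held without any 1 library. SPRY4:8, 33307 bp downstream of a start, was a weak peak that went from 37.6 ± 7.0 to 13.1 ± 4.2 normalized counts (log2 fold change -1.54 ± 0.34, adjusted p = 0.00052). Without dm-αKG replicate 1 its adjusted p was 0.013. SPRY4:4, the other lower peak of SPRY4, had as few as 1 read in a library. Upstream of SPRY4, 2 peaks in the antisense gene SPRY4-AS1 rose at an adjusted p below 0.05. On the log2 scale SPRY4:15 rose by 0.62 ± 0.16 (adjusted p = 0.0034) and SPRY4:17 by 0.52 ± 0.18 (adjusted p = 0.026, or 0.082 with DESeq2). SPRY4:16, which lies between them, did not pass the test (log2 fold change 0.17, adjusted p = 0.46). Promoter peaks of both genes passed no test. SPRY4:13 held 412, 428 and 374 normalized counts in control and 393, 362 and 341 with dm-αKG (adjusted p = 0.27). SPRED2:17, at an internal start, went from 611 ± 41 to 657 ± 54 (adjusted p = 0.39), and SPRED2:26, at the outermost start, from 356 to 373 (adjusted p = 0.73).

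The called inhibitor peaks with the smallest p at DUSP6, SPRY2 and SPRED2 are shown in full, because each lost more than 1 log2 unit whichever library was left out (hg38, plus strand, 5′ to 3′). Capitals mark matches on either strand to the ETS motif (CNGGAAG), the octamer (ATGCAAAT) or the SOX motif (CNTTGTT).
SPRY2:15, chr13:80359816-80360027: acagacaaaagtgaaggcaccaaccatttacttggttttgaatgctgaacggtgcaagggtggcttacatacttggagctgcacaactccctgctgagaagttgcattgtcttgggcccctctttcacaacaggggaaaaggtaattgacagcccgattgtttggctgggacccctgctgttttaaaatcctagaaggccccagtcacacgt
DUSP6:1, chr12:89349952-89350151: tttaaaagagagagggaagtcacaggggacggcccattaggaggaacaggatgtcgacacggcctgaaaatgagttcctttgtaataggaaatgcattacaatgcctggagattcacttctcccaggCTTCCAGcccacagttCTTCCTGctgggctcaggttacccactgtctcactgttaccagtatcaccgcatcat
SPRED2:32, chr2:65437873-65438072: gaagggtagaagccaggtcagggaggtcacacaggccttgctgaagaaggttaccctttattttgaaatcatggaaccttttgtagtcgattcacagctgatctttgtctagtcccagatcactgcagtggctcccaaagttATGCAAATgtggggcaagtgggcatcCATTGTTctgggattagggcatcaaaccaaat
DUSP6:1 has 2 ETS matches, SPRED2:32 an octamer and a SOX match, and SPRY2:15 none of the motifs searched. These are matches of letters and not measured binding.

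**Figure D2:**
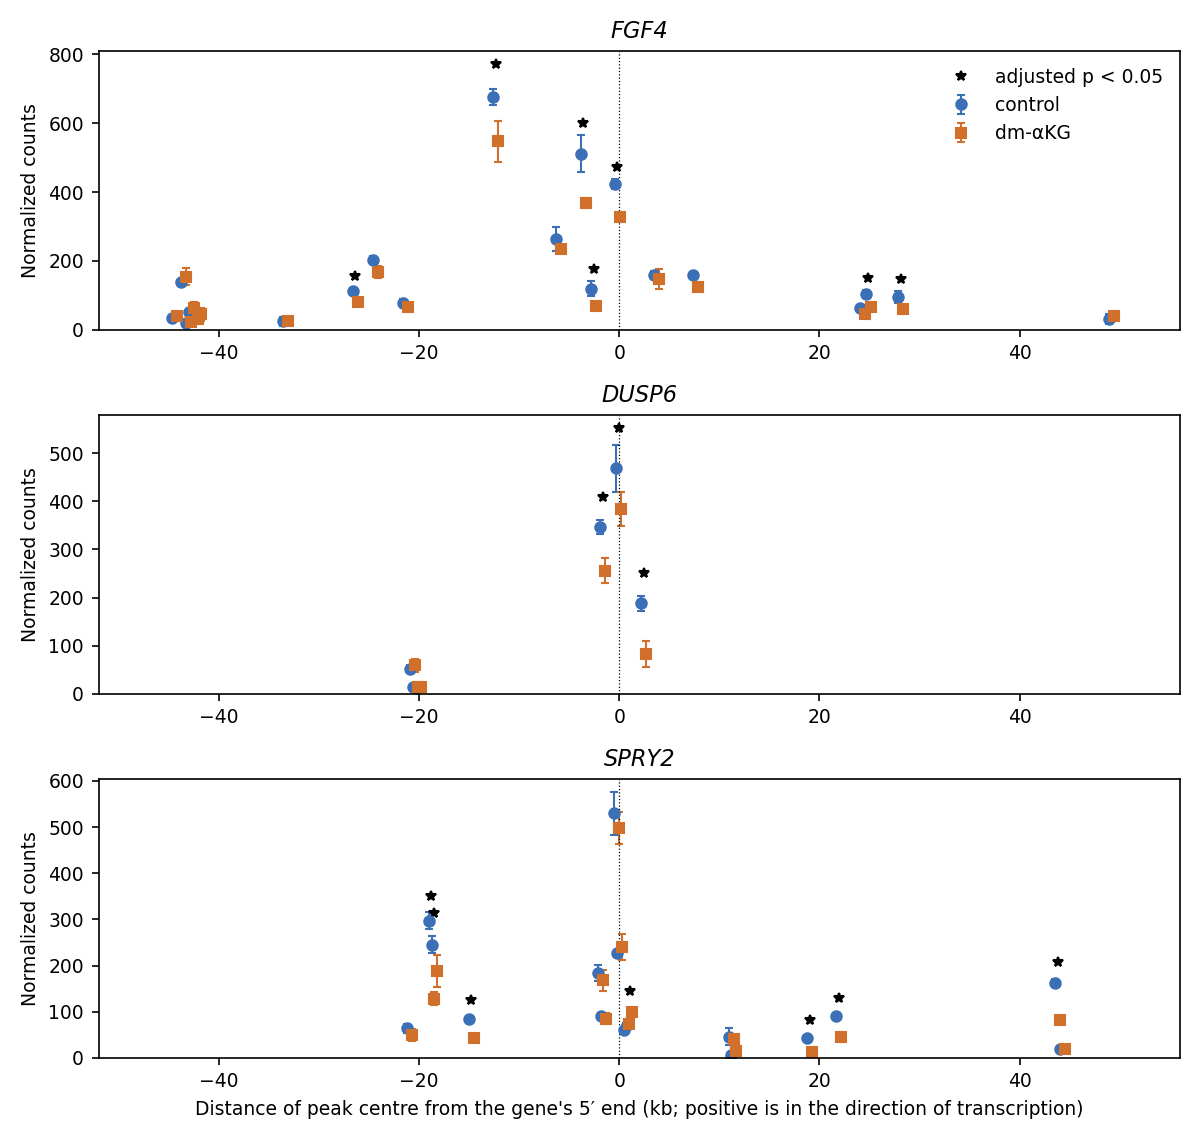
Mean normalized counts (± SD, n = 3 libraries per treatment) of each peak of FGF4, DUSP6 and SPRY2 against the distance of its centre from the 5′ end of the gene, in kb. Stars mark an adjusted p below 0.05, which 7 peaks of FGF4, 3 of DUSP6 and 7 of SPRY2 reached, with 1 SPRY2 peak higher and the others lower with dm-αKG.

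The target factors ETV4, ETV5 and EGR1 held 51 peaks and summed to 8745 ± 31 normalized counts in control and 8682 ± 61 with dm-αKG. Of these peaks, 2 were called less accessible and 1 more, and at an adjusted p below 0.05 there were 7 lower and 3 higher (13.7% and 5.88%, near the 10.5% and 7.43% of all peaks). Both lower calls were near ETV4 and the higher call was in ETV5. The ETV4 gene model spans 43527844 to 43579620 on chromosome 17 and overlaps the gene DHX8 in part. Both called peaks lie beyond the 5′ end of ETV4, within DHX8, and have an ETV4 start as their nearest coding start.

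At ETV4, the called peak ETV4:20, in an intron of DHX8, held 82.3, 85.5 and 76.5 normalized counts in control and 42.3, 16.7 and 61.4 with dm-αKG. The dm-αKG libraries differed widely among themselves, and the log2 fold change was -1.04 ± 0.23 (adjusted p = 0.00041). Without dm-αKG replicate 2, the lowest, it was -0.72 (adjusted p = 0.025), without control replicate 2 it was -0.99, and DESeq2 gave an adjusted p of 0.15. The weaker ETV4:23 went from 33.9 ± 3.6 to 15.2 ± 2.4 normalized counts (log2 fold change -1.17 ± 0.34, adjusted p = 0.0087). Its call was lost without control replicate 1, 2 or 3 and without dm-αKG replicate 1 or 2, with adjusted p-values between 0.020 and 0.061. The fit with a replicate block gave 0.012, limma-voom 0.010 and DESeq2 0.035. ETV4:22 fell by 0.61 ± 0.15 on the log2 scale (adjusted p = 0.0022). The promoter peak ETV4:6, at a start internal to the gene model, held 568, 551 and 542 normalized counts in control and 472, 513 and 501 with dm-αKG, all lower than control (adjusted p = 0.12).

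ETV5, with 11 peaks, was the 1 gene of the 10 with no peak lower at an adjusted p below 0.05. Over all peaks 10.5% were lower, so 0 of 11 is near that share. Of the 11 ETV5 peaks 2 were higher (18.2%), beside 7.43% of all peaks. Its called peak ETV5:1, in an intron near the 3′ end of the gene on chromosome 3, held 22.4, 12.3 and 4.9 normalized counts in control and 42.3, 39.8 and 31.4 with dm-αKG. The control libraries were weak and spread widely but all lay below the dm-αKG libraries. The log2 fold change was 1.48 ± 0.34 (adjusted p = 0.00086), and the adjusted p was 0.016 without control replicate 3 or without dm-αKG replicate 1. ETV5:3, also intronic, rose from 77.0 ± 16.5 to 122.9 ± 16.9 normalized counts (log2 fold change 0.70 ± 0.17, adjusted p = 0.0017). The promoter peak ETV5:10 was the strongest of the 198 and had 943, 907 and 922 normalized counts in control and 881, 928 and 1024 with dm-αKG (adjusted p = 0.84).

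EGR1, an immediate early zinc finger factor, showed no detected change at its promoter. The peak EGR1:7, 381 bp upstream of the start, held 611, 635 and 560 normalized counts in control and 623, 585 and 602 with dm-αKG. The libraries were interleaved, and the log2 fold change was 0.00 ± 0.07 (adjusted p = 0.99). None of the 16 EGR1 peaks was called by edgeR, DESeq2 or limma-voom, and 5 had an unadjusted p below 0.05. Over all 171517 peaks 52646 had an unadjusted p below 0.05. Of the 5 EGR1 peaks, 3 fell at an adjusted p below 0.05 (18.8% of the 16), beside 10.5% of all peaks. With edgeR 2.74% of all peaks were called, so a count of 0 calls is near that share. EGR1:16, in an intron of ETF1 at 43725 bp downstream, had 191, 225 and 211 normalized counts in control and 148, 146 and 148 with dm-αKG. Its log2 fold change was -0.51 ± 0.13 (adjusted p = 0.0018). EGR1:9, the nearest of them at 7124 bp downstream, fell by 0.48 ± 0.14 on the log2 scale (adjusted p = 0.0078), and EGR1:13 by 0.71 ± 0.20 (adjusted p = 0.0085, or 0.058 with DESeq2).

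The peaks EGR1:7 and ETV5:1 are shown as the promoter with no detected change and the site that rose (hg38, plus strand, 5′ to 3′). Capitals mark matches to the CArG box, the motif of serum response factor through which growth factors act on EGR1, to the ETS motif (CNGGAAG), or to the AP-1 motif (TGANTCA) of JUN and FOS factors.
EGR1:7, chr5:138464997-138465199: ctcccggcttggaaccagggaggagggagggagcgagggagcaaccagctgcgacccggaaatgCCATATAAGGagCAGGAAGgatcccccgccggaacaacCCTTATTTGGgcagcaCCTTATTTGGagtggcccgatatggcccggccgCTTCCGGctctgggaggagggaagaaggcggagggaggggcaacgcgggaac
ETV5:1, chr3:186054029-186054228: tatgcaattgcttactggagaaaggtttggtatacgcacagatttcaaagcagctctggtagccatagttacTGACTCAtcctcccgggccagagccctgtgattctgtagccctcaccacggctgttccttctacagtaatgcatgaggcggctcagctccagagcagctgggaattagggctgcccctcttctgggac
EGR1:7 holds 3 CArG boxes and 2 ETS matches. ETV5:1 holds 1 AP-1 match, and ETV5:3 also has one.

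**Figure D3:**
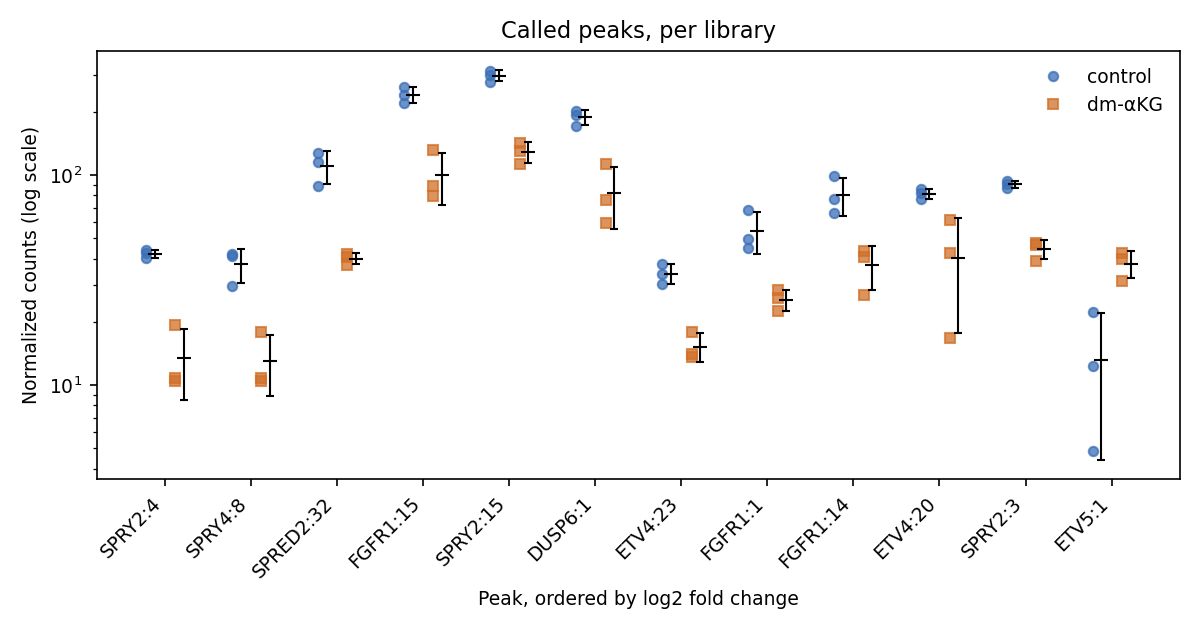
Normalized counts (log scale) of the 12 called peaks in each library, ordered by log2 fold change, with the mean and SD (n = 3) beside the points of each treatment. ETV5:1 is the single peak that is higher with dm-αKG. The treatments do not overlap at any of the 12, which the thresholds for a call, set on these same libraries, make likely. Over all peaks of the series 32.4% do not overlap.

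Promoters differed in level far more between genes than between treatments. Per 100 bp, the control promoter peaks ran from 13.6 ± 1.6 normalized counts at FGF2 to 448 ± 9 at ETV5 (SD, n = 3). In between came FGFR1 with 181 ± 7, ETV4 with 196 ± 5, SPRY4 with 197 ± 14, FGF4 with 203 ± 7, DUSP6 with 231 ± 24, SPRY2 with 264 ± 23, SPRED2 with 278 ± 19 and EGR1 with 297 ± 19. In this order the ranges of mean ± SD of neighbours overlapped from ETV4 to EGR1, while FGF2, FGFR1 and ETV5 stood clear of theirs. None of the 10 was called by edgeR, DESeq2 or limma-voom, and 3 had an unadjusted p below 0.05. The latter held for 12081 of all 45625 peaks within 1 kb of a coding start. At an adjusted p below 0.05, 2 of the 10 fell, FGF4:7 and DUSP6:2. Of all peaks within 1 kb of a coding start, 0.69% were called and 3.24% fell at an adjusted p below 0.05.

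**Figure D4:**
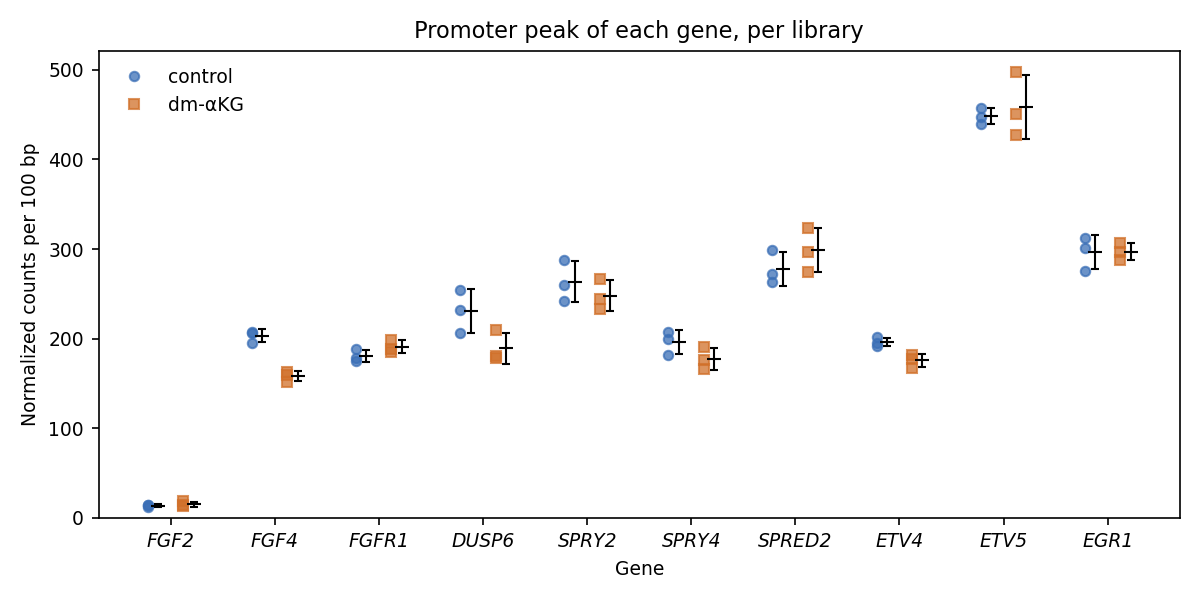
Normalized counts per 100 bp of the promoter peak of each gene in each library, with the mean and SD (n = 3) beside the points of each treatment. FGF4 separates fully, from 203 ± 7 in control to 158 ± 6 with dm-αKG. ETV4 separates by less (adjusted p = 0.12 with edgeR), and the treatments overlap at the other 8 genes. Of all peaks within 1 kb of a coding start, 29.3% do not overlap, so separation at these promoters is not more frequent than that.

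Peaks near starts and far from them were then counted separately. None of the 30 peaks within 1 kb of a start of their own gene was called by edgeR, DESeq2 or limma-voom. An unadjusted p below 0.05 was found for 7 of them, and for 12081 of all 45625 peaks within 1 kb of a coding start. Calls were rare at such places in general, at 0.69% of all peaks within 1 kb of a coding start and 3.49% of all others, so a count of 0 is near the background. Among the 47 peaks within 1 kb of any protein-coding start, 4 fell and 3 rose at an adjusted p below 0.05 (8.51% and 6.38%), beside 3.24% and 10.6% of all 45625 such peaks in the series. Their median log2 fold change was 0.09, and that of all such peaks 0.11. Farther than 1 kb from any coding start lay 151 peaks, of which 31 fell and 7 rose (20.5% and 4.64%), against 13.2% and 6.29% of the 125892 such peaks. The medians were -0.11 and -0.05. All 12 called peaks were in this distal class, which also held 93.3% of the called peaks of the whole series.

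The peaks were also searched for short motifs on both strands, in the central 200 bp of every peak. The CIC motif (TGAATGNA), bound by a repressor that ERK inactivates, was found in 14 of the 198 peaks (7.07%) and in 2.71% of all peaks. Peaks with it included the promoters SPRY2:10, SPRY4:13 and ETV4:6 and the distal FGF2:7 and FGF4:14. Of these 14 peaks, FGF2:7 and FGF4:14 fell at an adjusted p below 0.05 and 0 rose, near the 10.5% and 7.43% of all peaks. The CIC motif was in 5.71% of the 35 peaks that fell, and in 3.92% of all peaks of the series that fell. The ETS motif was in 26.3% of the 198 peaks and 21.98% of all, the SOX motif in 13.6% and 9.72%, the octamer in 4.04% and 2.3%, and the AP-1 motif in 5.56% and 6.33%. The CArG box was in 1.01% and 0.884%, and the TEAD motif (GGAATG) in 10.1% and 14.6%. Among the 35 peaks that fell at an adjusted p below 0.05, 8 held a SOX motif (22.9%), 8 an ETS motif (22.9%), 7 a TEAD motif (20%), 3 an octamer (8.57%) and 1 an AP-1 motif (2.86%). Over all peaks of the series that fell at this threshold, the shares were 15.3%, 19.7%, 22.1%, 5.31% and 6.4%. Among the 10 that rose, 2 each held an AP-1, an ETS or a SOX motif, the AP-1 motifs both in ETV5, and over all peaks that rose these motifs had shares of 10.2%, 22.4% and 7.89%. The motifs can overlap only in part, since no match of one is a match of another, and the shares are descriptions.

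The surroundings of 40 other genes of the pathway were counted in the same way. Its 908 peaks, 4 of them also counted above, had 13 calls of less and 7 of more accessibility (1.96% and 0.782% of all peaks were called). At an adjusted p below 0.05, 87 were lower and 103 higher (9.58% and 11.3%), and the median log2 fold change was 0.06. For comparison, 10.5% of all peaks were lower and 7.43% higher. By role, the 147 peaks of the other ligands were 14.97% lower and 8.16% higher, and the 134 of the other feedback inhibitors 11.9% and 7.46%. The 137 peaks of the other receptors were 4.38% lower and 11.7% higher, the 317 of the cascade proteins 8.52% and 13.6%, and the 183 of the other targets 8.74% and 13.7%. The 2 largest falls among its called peaks were near the ligand FGF1, from 73.3 ± 20.1 to 21.4 ± 3.7 normalized counts (log2 fold change -1.84), and near the ERK gene MAPK3, from 28.9 ± 5.2 to 8.6 ± 1.0 (log2 fold change -1.72).

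Among the pathway calls were further inhibitors and receptors, at rates near the background. Of the 908 peaks 2.2% were called in either direction, beside 2.74% of all peaks. The share was 2.99% for the other feedback inhibitors and 2.19% for the other receptors. A peak near SPRY1, another Sprouty gene, held 75.1, 64.1 and 117 normalized counts in control and 35.9, 37.2 and 35.9 with dm-αKG (log2 fold change -1.20, adjusted p = 2.7e-05). A peak in an intron of IL17RD, a membrane inhibitor of FGF signalling, fell by 1.63 on the log2 scale (adjusted p = 7.6e-05). At FGFR2, a peak 210 bp from an internal start fell from 180 ± 5 to 78.6 ± 18.3 normalized counts (log2 fold change -1.15, adjusted p = 5.3e-09). The other lower calls were near NF1, FRS2, MAP2K1, KLB, CIC, FGF18 and the ETS factor ETV1, plus another near MAPK3. Calls in the other direction included peaks near the adaptor GRB2, the kinase MAP2K2, the receptor FGFR4, the phosphatase DUSP5 and CIC. The GRB2 peak went from 30.4, 39.5 and 34.0 normalized counts in control to 81.8, 117 and 88.3 with dm-αKG (log2 fold change 1.44, adjusted p = 1.7e-07).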

How the data were processed

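ATAC-seq libraries of H9 nES cells in tt2iLGö medium, 3 controls and 3 treated for 24 h with dm-αKG (4 mM), were analysed, grouped by the labels. The authors trimmed reads with cutadapt, aligned them to hg38 with Bowtie2 and ran the ENCODE ATAC-seq pipeline once per treatment, with MACS2 peaks filtered by irreproducible discovery rate. They cut peaks to 200 bp around the summit, merged both lists and counted reads per peak with bedtools 2.28.0. The authors deposited raw counts per peak and library, and 1 peak list per treatment with each peak's signal as a fold enrichment ratio and its q-value as −log10. Only the lists' presence or absence of a peak was tabulated here (131 of the 198 peaks were in both). The labels describe a recovery period in the medium before treatment that the methods do not.

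Counts were fitted over all 171517 peaks, without a filter, in R 4.3.3 with edgeR 4.0.16 (TMM, quasi-likelihood, treatment as the only term), and the fit was tested on simulated data. Standard errors are the log2 fold change over the square root of F. DESeq2 1.42.0 and limma 3.58.1 were alternatives. With 3 libraries against 3, an exact permutation test of 1 peak cannot go below 0.10. The p-values cover the spread between replicates of 1 experiment. Motifs, sequences and annotation came from hg38 and GENCODE 44 (Python 3.11.15, pysam 0.24.0). For each gene the rule for naming took the promoter peak (centre within 1 kb of a start, highest mean count), the peak with the smallest adjusted p and every called peak. Other peaks below 0.05, FGF4:6 and SPRED2:26 were named after their values were seen. Other pathway genes were named where they had a called peak, and some are not reported here. Members and lists were chosen with earlier results of these data known.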

Additional observations from a re-analysis of the deposited data

How the results depend on the processing

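Of the 12 calls, 5 (FGFR1:15, DUSP6:1, SPRY2:4, SPRY2:15 and SPRED2:32) held under every alternative fit that could give them a value. The 11 lower calls became 10 or 11 under other scalings, 10 with limma-voom and 8 with DESeq2, and 7 to 12 with 1 library left out, the lowest without control replicate 2. They were 4 within 10 kb of the genes, 30 at an adjusted p below 0.01 and 35 below 0.05 with no fold threshold. The 1 higher call was lost (0) where at least 10 counts in every library were required, since ETV5:1 was then not tested, and ranged from 0 to 1 with 1 library left out. It became 4 within 100 kb, and 3 and 10 without a fold threshold. The 10 higher peaks at an adjusted p below 0.05 were 3 with DESeq2 and 3 to 10 with 1 library left out, the lowest without dm-αKG replicate 1, and 6, 6 and 5 without control replicate 1, control replicate 3 and dm-αKG replicate 2. The 7 higher calls near other pathway genes were 4 with DESeq2 and 4 to 10 with 1 library left out, the lowest without control replicate 3. The median log2 fold change of the 198 peaks lay between -0.0878 and -0.0303 with 1 library left out.

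Libraries with the same replicate number did not deviate together (correlations -0.016, 0.00096 and 0.017), and 2 of 6 correlated best with their own number. With a replicate block there were 10 lower and 1 higher calls, 33 lower and 10 higher peaks at an adjusted p below 0.05, 12 and 7 calls near other pathway genes, and a median of -0.06. Depth limits the weak peaks most, such as SPRY4:4 and ETV5:1.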
